A study of Mus musculus with 16 samples.

Results

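The leukocyte tetraspanins Cd9, Cd63, Cd81, Cd82, Cd53, Cd37 and Cd151 were examined in neonatal monocytes sorted by their surface level of Nrp1 (neuropilin-1, a surface co-receptor of semaphorin and VEGF signalling). The 7 genes were found by symbol in a count table of 25562 genes, and all 7 were among the 15541 genes that passed the filter on low counts. A set of 17 accessible chromatin regions, out of 40796, carried the Ensembl identifier of one of them. The genes were chosen by the measured RNA values of the same high-against-low comparison, so their RNA differences are given below as a description and support no statement.

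The 2 groups were Nrp1 high and Nrp1 low monocytes from the spleens of wild type mice 7 days old, C57BL/6J for RNA and C57BL/6 for chromatin. RNA-seq was done on 3 Nrp1 high and 3 Nrp1 low libraries of 80000 cells each. ATAC-seq, in which a transposase cuts open chromatin, was done on 5 libraries of each group, with 50000 cells each. No gene deletion or treatment is named for either group, the cell type label is myeloid-derived suppressor cell, and no other marker of the sort is named. Descriptions of the RNA samples read Nrp1 neg and Nrp1 pos M MDSC, whereas their titles read Nrp1 low and Nrp1 high. The labels speak of pooled RNA and do not say that libraries came from separate animals, so a p-value here reflects how far these libraries spread, which may be technical variation alone.

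Tetraspanins are small membrane proteins that cross the membrane several times and carry a large extracellular loop. They gather integrins, immunoglobulin-family proteins, proteases and each other into tetraspanin-enriched microdomains, and several of them are used as marker proteins of exosomes. In leukocytes CD63 sits mainly in lysosomes, granules and multivesicular bodies, CD53 and CD37 are found on most white cell types, and CD81 is found on lymphocytes and many other cell types.

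Total estimated counts were 28440098 to 31428419 in the Nrp1 high and 23395363 to 35127433 in the Nrp1 low libraries. Nrp1 itself, the sorting marker, was measured at 97.3, 89.8 and 111.4 CPM (counts relative to library size, scaled by the TMM method) in Nrp1 high and 20.1, 57.8 and 41.5 CPM in Nrp1 low libraries. These values did not overlap, and the adjusted p was 0.259 with edgeR and 0.0218 with DESeq2. Nrp1 low replicate 1 lay farthest from the other libraries on the first principal component, which held 61.4% of the variance (89.5, against -50.26 to 19.48). Of 15541 genes tested, 1 was higher and 105 were lower in Nrp1 high cells at a Benjamini-Hochberg adjusted p under 0.05 from edgeR's quasi-likelihood test. DESeq2 called 77 higher and 326 lower. All 10 genes of the classical monocyte list were measured and none was called by edgeR, with 6 above and 4 below 0 and a median log2 fold change of 0.17. Ccr2 averaged 809.8 ± 122.2 CPM in Nrp1 high, against 463.3 ± 143.5 CPM in Nrp1 low libraries, and Lyz2 averaged 24570.0 ± 5225 CPM in Nrp1 high, against 36830.0 ± 8433 CPM in Nrp1 low libraries (SD, n = 3 each). Groups were separate with Nrp1 high above for F13a1, Ccr2 and Fn1 of the 10, and with Nrp1 high below for none. Over all genes tested the shares were 9.51% above and 10.8% below. The summed level of the 10 was 29300 to 37730 CPM in Nrp1 high, against 33470 to 47910 CPM in Nrp1 low libraries.

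The sequence just upstream of the transcript start is shown for 5 members because they span the differences in RNA level described below, with Cd63, Cd81 and Cd9 at the large end, Cd53 in between and Cd37 at the small end. Each run holds 250 bases, 5′ to 3′ on the gene's strand, from RefSeq on GRCm38.p6. Capitals mark matches, on either strand, to 1 of 7 short motifs that were searched: GAGGAAGT for PU.1, TTGCNNAA for C/EBP, GGGTGNGG for Kruppel-like factors, GGGCGG for SP factors, TGANTCA for AP-1, TGNGGT for RUNX and TCACGTGA for TFEB and MITF. Cd63 lies at chr10:128909095-128909344 on the plus strand, Cd81 at chr7:143052500-143052749 on the plus strand, Cd9 at chr6:125494761-125495010 on the minus strand, Cd53 at chr3:106790150-106790399 on the minus strand and Cd37 at chr7:45238840-45239089 on the minus strand.
Cd63: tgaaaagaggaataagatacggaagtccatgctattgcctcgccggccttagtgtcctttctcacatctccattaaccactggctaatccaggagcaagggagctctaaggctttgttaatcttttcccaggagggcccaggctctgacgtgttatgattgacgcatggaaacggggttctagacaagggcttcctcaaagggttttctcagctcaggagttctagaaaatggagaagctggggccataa
Cd81: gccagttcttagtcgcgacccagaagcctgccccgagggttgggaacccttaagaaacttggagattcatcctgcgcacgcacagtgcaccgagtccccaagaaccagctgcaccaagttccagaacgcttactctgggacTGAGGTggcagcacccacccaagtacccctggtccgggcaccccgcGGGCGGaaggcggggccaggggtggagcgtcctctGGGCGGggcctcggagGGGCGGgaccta
Cd9: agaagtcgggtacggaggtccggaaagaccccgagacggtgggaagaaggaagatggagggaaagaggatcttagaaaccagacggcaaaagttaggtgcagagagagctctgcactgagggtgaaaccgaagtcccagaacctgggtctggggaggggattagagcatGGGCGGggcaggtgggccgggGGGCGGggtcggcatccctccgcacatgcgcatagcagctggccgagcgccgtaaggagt
Cd53: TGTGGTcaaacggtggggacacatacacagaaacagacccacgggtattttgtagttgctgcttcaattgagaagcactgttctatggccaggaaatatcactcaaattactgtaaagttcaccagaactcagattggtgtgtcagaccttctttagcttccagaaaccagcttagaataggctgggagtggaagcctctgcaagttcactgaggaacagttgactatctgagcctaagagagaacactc
Cd37: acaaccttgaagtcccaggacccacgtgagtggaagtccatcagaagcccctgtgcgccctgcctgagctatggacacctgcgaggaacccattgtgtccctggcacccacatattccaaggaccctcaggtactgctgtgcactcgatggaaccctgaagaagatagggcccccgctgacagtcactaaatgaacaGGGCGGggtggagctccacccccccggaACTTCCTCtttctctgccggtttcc

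All 7 members matched the RefSeq promoter table, with 11 starts, 4 of them of Cd82 and 2 of Cd151. Positions are counted from the transcript start, and shares refer to windows of 300 bases (250 before and 50 after the start) of 32851 annotated promoters. The SP motif occurred in 5 of the 7 genes, at 6 of the 11 starts, beside 35.7% of all promoters. It lay at -63, -28 and -12 in Cd81, at -81 and -60 in Cd9 and at -53 in Cd37. A PU.1 match occurred in 3 genes, at 3 of the 11 starts, beside 3.2% of all promoters. It lay at -25 in Cd37, as the reverse complement ACTTCCTC, at +7 in Cd53, past the end of the run shown, and at -225 of 1 Cd82 start. RUNX letters were present in 4 genes, at 6 of the 11 starts (45.8% of all promoters), including Cd81 at -109 and Cd53 at -250. C/EBP letters (10.8% of all promoters) and Kruppel-like letters (16.6%) were found at Cd82 starts alone among the members, each at 2 of the 11 starts. No 2 matches of different motifs shared a base at these starts. AP-1 letters (7.81%) and TFEB or MITF letters (0.974%) were found at none of the 11 starts, and the Cd63 window held none of the 7 motifs. GC content of the upstream run was 48.8% for Cd63, 65.6% for Cd81, 61.6% for Cd9, 45.2% for Cd53 and 58.8% for Cd37, beside a median of 52.4% over all promoters. A match describes letters only and is no evidence of binding.

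Cd63 (ENSMUSG00000025351, GRCm38 chr10:128896231-128912822), the lysosome and granule tetraspanin carried there by the AP-3 adaptor, showed the largest difference of the 7. Its level was 53.7, 70.2 and 46.6 CPM in the Nrp1 high libraries and 462.8, 280.5 and 391.8 CPM in the Nrp1 low libraries. All 3 Nrp1 high libraries were below all 3 Nrp1 low libraries, and the lowest Nrp1 low library was 3.99 times the highest Nrp1 high one. The mean was 56.9 ± 12.1 CPM in Nrp1 high libraries, against 378.4 ± 91.9 CPM in Nrp1 low libraries (SD, n = 3 each, here and below), 6.65-fold lower in Nrp1 high cells. The log2 fold change was -2.73 ± 0.27 (SE), and in edgeR's fit over all genes the adjusted p was 0.0046, place 21 of 15541 by p. Without Nrp1 high replicate 3 the adjusted p was 0.0644. The pseudogene Cd63-ps held 3 to 19 estimated counts per library, against 1439 to 14556 for Cd63.

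Cd9 (ENSMUSG00000030342, chr6:125460266-125494760) encodes a partner of integrins and of immunoglobulin-family proteins that is abundant on platelets and basophils. The Nrp1 high libraries held 44.9, 55.3 and 41.8 CPM, against 172.6, 110.0 and 120.0 CPM in the Nrp1 low libraries. The groups did not overlap, and the spread was wider in Nrp1 low cells, where replicate 1 was the highest. The mean of 47.3 ± 7.07 CPM in Nrp1 high, against 134.2 ± 33.7 CPM in Nrp1 low libraries, made a 2.84-fold lower level in Nrp1 high cells (log2 fold change -1.50 ± 0.24, adjusted p 0.0371 from edgeR, place 88 by p). That value passed 0.05 without Nrp1 low replicate 1 but lay between 0.0521 and 0.292 when any other single library was left out.

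Cd81 (ENSMUSG00000037706, chr7:143052750-143067930), which associates with integrins in leukocytes, had a fold like that of Cd9 with more scatter among the Nrp1 high libraries. It stood at 43.8, 98.8 and 43.6 CPM in Nrp1 high and at 220.5, 170.3 and 155.8 CPM in Nrp1 low libraries. The groups again did not overlap, yet Nrp1 high replicate 2 was 2.27 times the lowest library of its group. With a mean of 62.1 ± 31.8 CPM in Nrp1 high, against 182.2 ± 34.0 CPM in Nrp1 low libraries, the level was 2.94-fold lower in Nrp1 high cells, with a log2 fold change of -1.55 ± 0.35 and an adjusted p of 0.157 in edgeR's fit. Without Nrp1 high replicate 2 the log2 fold change was -2.05 and the adjusted p 0.0294, and DESeq2 on all 6 libraries gave 0.00215.

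Cd53 (ENSMUSG00000040747, chr3:106758861-106790149), a pan-leukocyte tetraspanin, and Cd82 (ENSMUSG00000027215, chr2:93419102-93462950), which acts in adhesion and on endosomes, had smaller differences. Cd53 stood at 253.3, 361.4 and 286.9 CPM in Nrp1 high libraries and at 625.5, 383.8 and 425.5 CPM in Nrp1 low libraries. Cd82 was at 52.5, 63.3 and 50.0 CPM in Nrp1 high libraries, against 88.9, 66.6 and 92.5 CPM in Nrp1 low libraries. In both genes the groups were just separate, since the lowest Nrp1 low library was 1.06 times the highest Nrp1 high one for Cd53 and 1.05 times for Cd82. Cd53 averaged 300.5 ± 55.3 CPM in Nrp1 high, against 478.3 ± 129.2 CPM in Nrp1 low cells, with a log2 fold change of -0.67 ± 0.25. Cd82 averaged 55.3 ± 7.06 CPM in Nrp1 high, against 82.7 ± 14.1 CPM in Nrp1 low cells, with a log2 fold change of -0.58 ± 0.21. Neither passed the threshold, with adjusted p-values of 0.418 for Cd53 and 0.407 for Cd82 from edgeR.

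In Cd37 (ENSMUSG00000030798, chr7:45233632-45239340), another pan-leukocyte tetraspanin, and Cd151 (ENSMUSG00000025510, chr7:141467362-141471481), the partner of laminin-binding integrins, the groups overlapped. Cd37 had 182.4, 142.4 and 150.2 CPM in Nrp1 high, against 174.6, 150.8 and 200.3 CPM in Nrp1 low libraries. Its log2 fold change was -0.15 ± 0.20, and at library totals without scaling factors the value was 0.05, with the opposite sign. Cd151, the least counted of the 7 with 161 to 345 estimated counts, was at 9.77, 10.6 and 8.62 CPM in Nrp1 high libraries, against 8.65, 6.72 and 8.37 CPM in Nrp1 low libraries. It was the only member above 0, at 0.29 ± 0.28 on the log2 scale. The adjusted p-values from edgeR were 0.725 for Cd37 and 0.624 for Cd151, which does not show that the levels were the same.

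**Figure D1:**
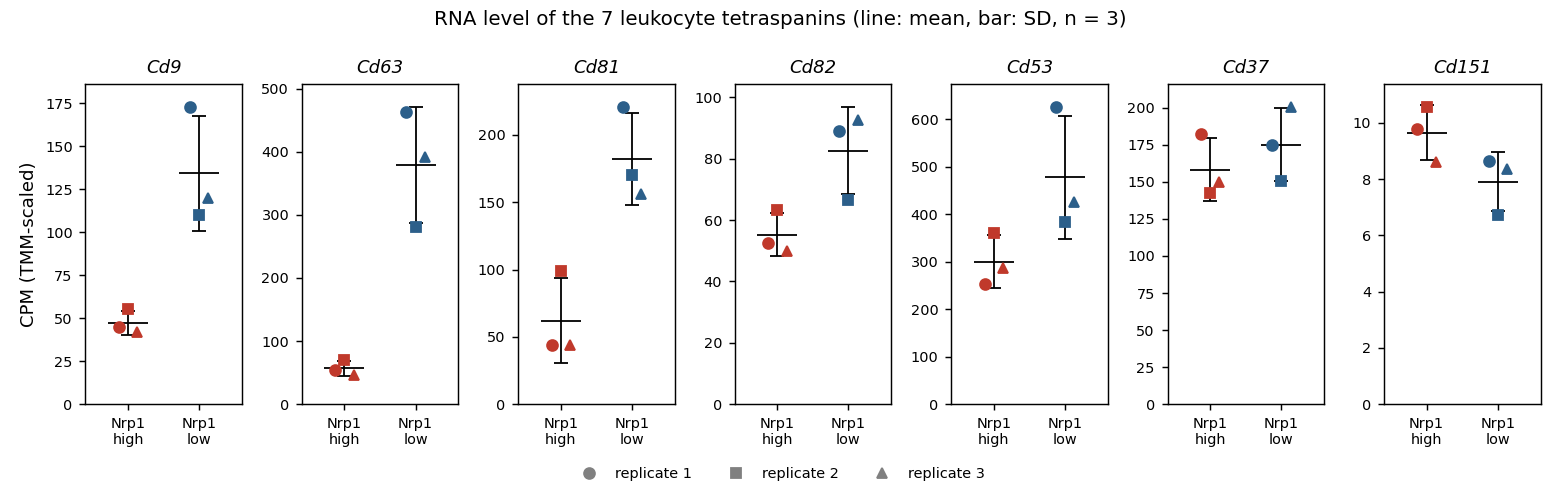
RNA level of the 7 tetraspanins in CPM at TMM-scaled library sizes, 1 panel per gene with its own axis from 0, Nrp1 high left of Nrp1 low; each point is a library, its shape the replicate number, with the mean as a line and the SD as a bar (n = 3). The 3 Nrp1 high points lie below the 3 Nrp1 low points for Cd9, Cd63, Cd81, Cd82 and Cd53, and the points of the groups overlap for Cd37 and Cd151.

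Across the set, 2 of the 7 members, Cd63 and Cd9, were past the adjusted threshold in the lower direction and none in the higher. Of all genes tested, 0.676% were called lower and 0.00643% higher, and nothing is read from this contrast because it chose the members. Groups were separate with Nrp1 high below in 5 members and with Nrp1 high above in none, beside 10.8% and 9.51% of all genes tested. The median log2 fold change of the members was -0.67, beside 0.01 over all genes tested. In bulk samples such as these, fewer cells of a type and less RNA per cell cannot be told apart.

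Within each group, the same library was the highest for most members. Nrp1 high replicate 2 was the highest of its group for 6 of the 7 genes, Cd37 being the exception, and this held for 38.7% of all genes tested. Nrp1 low replicate 1 was the highest of its group for 5 members, against 35.8% of all genes. Both held at once for Cd9, Cd63, Cd81, Cd53 and Cd151, and for 23.0% of all genes. On the log2 scale, Nrp1 high replicate 2 exceeded the mean of the other 2 libraries of its group by 1.18 for Cd81, 0.49 for Cd63, 0.42 for Cd53 and 0.35 for Cd9.

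Pearson's r of log2(CPM + 1) over the 6 libraries, given as a description since the points share the group split, was 0.988 between Cd9 and Cd63, 0.952 between Cd9 and Cd81 and 0.938 between Cd63 and Cd81. It ranged over 0.867 to 0.926 for Cd53 and Cd82 against Cd9, Cd63 and Cd81. Cd37 had r between 0.17 and 0.526 with those 5 genes, and Cd151 between -0.568 and -0.25. Among genes of at least 10 CPM, those most like Cd63 were Fcnb (r = 0.999), Ms4a3 (0.999) and Chil1 (0.998). Fcnb, the granule lectin ficolin-B, averaged 342.3 CPM in Nrp1 high, against 2046 CPM in Nrp1 low cells, and Ms4a3 averaged 68.6 CPM in Nrp1 high, against 342.5 CPM in Nrp1 low cells. Most like Cd9 were Rgcc (0.999), Ceacam1 (0.996) and Mrpl19 (0.995), and most like Cd81 were St3gal5 (0.998), Ntpcr (0.997) and Psph (0.993). For Cd82 the names were Spag7, Mrpl41 and Snrpc, and for Cd53 Snx6, Spc25 and Tnfrsf13b, with r between 0.993 and 0.998. The closest genes to Cd37 were Sertad1, Relt and Morrbid (0.979 to 0.987), and those closest to Cd151 were Endog, Zdhhc12 and Tcf19 (0.975 to 0.981).

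The rest of the tetraspanin family was read from a list of 24 genes, of which 18 were tested. Tspan4, known from rat cells as a marker of migrasomes, was the 1 gene of the 18 called. It was called lower in Nrp1 high cells, as were 0.676% of all genes tested. It had 8.81, 9.27 and 8.43 CPM in Nrp1 high, against 22.1, 23.0 and 24.3 CPM in Nrp1 low libraries, with the groups far apart and little spread within either. The log2 fold change was -1.39 ± 0.23, with an adjusted p of 0.0481 from edgeR that lay between 0.11 and 0.362 without Nrp1 high replicate 1, 2 or 3 or Nrp1 low replicate 2 or 3. With no filter on low counts Tspan4 had 0.0534, and the list's 1 call was then Tspan32 (0.0475). Tspan32 (Tssc6), a tetraspanin of blood cells, was just outside the threshold, at 60.4, 73.0 and 58.1 CPM in Nrp1 high, against 164.6, 122.1 and 145.6 CPM in Nrp1 low libraries. Its log2 fold change of -1.18 ± 0.20 had an adjusted p of 0.0501, and it passed 0.05 under 5 of 14 alternatives, DESeq2 and limma-voom among them. Tspan13, at -1.06 ± 0.29 (adjusted p 0.262), and Tspan2, at -1.35 ± 0.40 (adjusted p 0.301), came next by p. Of the 18, 14 were below 0 and 4 above, with a median of -0.27 beside 0.01 over all genes tested.

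Both Tspan4 and Tspan32 lie near a member on chromosome 7. Tspan4 (chr7:141475236-141493427) begins 3754 bases past Cd151, which did not pass the threshold in RNA. Tspan32 (chr7:143004907-143019486) lies 33263 bases before Cd81.

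**Figure D2:**
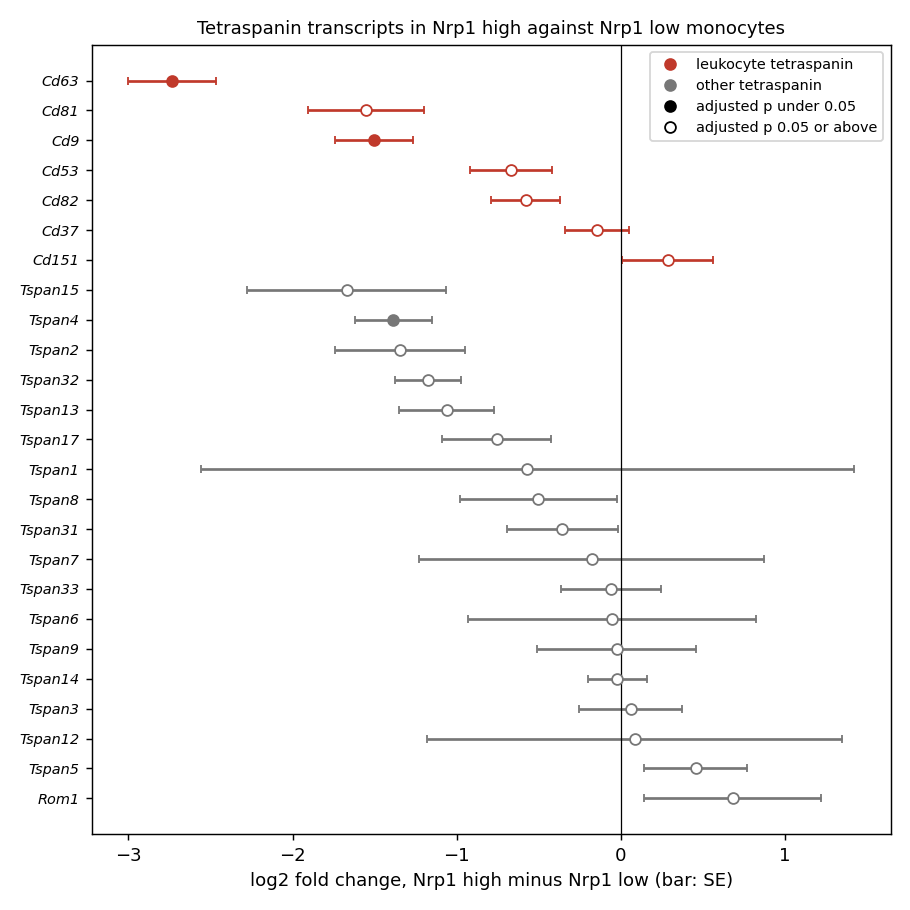
Log2 fold change of RNA, Nrp1 high minus Nrp1 low, for the 7 leukocyte tetraspanins (red) and the 18 other tetraspanins tested (grey), with SE bars; filled points have an adjusted p under 0.05 in edgeR's fit over all genes. Cd63 lies farthest left at -2.73, Cd9 and Tspan4 are the other filled points, and Cd37 and Cd151 lie close to 0 among the red points.

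Proteins that associate with tetraspanins at the membrane were read from a list of 33 genes, 30 of them tested, and none was called by edgeR. At an unadjusted p under 0.05 from edgeR, 2 were higher and 5 lower, beside 1744 of all 15541 genes tested in either direction. DESeq2 called 1 in each direction and limma-voom none. The integrin subunit Itgb2, the common beta chain of the leukocyte integrins, averaged 471.4 ± 92.5 CPM in Nrp1 high, against 891.7 ± 183.5 CPM in Nrp1 low cells (log2 -0.92 ± 0.24, adjusted p 0.23). The chemokine receptor gene Cxcr4 averaged 13.6 ± 0.68 CPM in Nrp1 high, against 6.65 ± 1.24 CPM in Nrp1 low cells (log2 1.03 ± 0.28, adjusted p 0.257). Ifitm2, an interferon-induced membrane protein gene, followed at a log2 fold change of -0.72 ± 0.27 (adjusted p 0.414). Itgb1, which encodes the beta chain of the laminin receptors that bind CD151, was at 0.29 ± 0.23 (adjusted p 0.557). The median over the 30 genes was 0.07.

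Genes of exosome release and multivesicular bodies, where CD63, CD9 and CD81 are carried, numbered 26, and none of the 25 tested was called by edgeR, DESeq2 or limma-voom. At an unadjusted p under 0.05, 1 was higher and 2 were lower, beside 1744 of all 15541 genes tested in either direction. The list's median log2 fold change was -0.33. The lipid-raft protein gene Flot1 was at -0.75 ± 0.22 (adjusted p 0.291), the ESCRT-III subunit gene Chmp4b at 1.37 ± 0.54 (adjusted p 0.432) and Rab11a, of recycling endosomes, at -0.55 ± 0.24 (adjusted p 0.442). Sdcbp, which encodes syntenin-1, the adaptor that binds CD63, was at 281.5, 631.2 and 414.4 CPM in Nrp1 high, against 1006, 604.1 and 591.7 CPM in Nrp1 low libraries, and the groups overlapped.

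Lysosome and granule membrane genes numbered 31, all tested, with none called by edgeR and 1 called lower by DESeq2 and 1 by limma-voom. At an unadjusted p under 0.05, 1 was higher and 5 were lower, beside the same 1744 of 15541 genes, and the list's median log2 fold change was -0.05. Ap3s1, a subunit of the AP-3 adaptor, was nearest to the threshold with 131.8, 124.5 and 111.8 CPM in Nrp1 high, against 278.2, 228.2 and 231.7 CPM in Nrp1 low libraries. Its groups were well apart, and its log2 fold change was -1.004 ± 0.18 (adjusted p 0.0611). Hps4, of a complex for lysosome-related organelles, was at 0.76 ± 0.23 (adjusted p 0.316), and the fusion protein gene Snap23 at -0.61 ± 0.21 (adjusted p 0.387). Lamp1, a main protein of the lysosome membrane, averaged 1157 ± 170 CPM in Nrp1 high, against 1340.0 ± 187 CPM in Nrp1 low cells, with overlapping groups.

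Some genes from lists of markers of other blood cells were also called lower in Nrp1 high cells. Whether monocytes or other cells held these transcripts was not tested. Of 15 neutrophil genes, 10 were called lower and none higher, namely Camp, Ngp, Ltf, Lcn2, Chil3 and Cd177 and, of genes not for secondary granule proteins, S100a8, S100a9, Cxcr2 and Cebpe. Over all genes tested, 0.676% were called lower and 0.00643% higher. The summed level of the 15 was 6969 to 7974 CPM in Nrp1 high, against 43510 to 73140 CPM in Nrp1 low libraries. Without S100a8 and S100a9 it was 2519 to 3339 CPM in Nrp1 high, against 20380.0 to 31930.0 CPM in Nrp1 low libraries. Of 7 primary granule genes tested, 6 were called lower, with sums of 2736 to 4914 CPM in Nrp1 high, against 11860 to 18540 CPM in Nrp1 low libraries. Among the Nrp1 high libraries the primary granule sum was highest in replicate 2 (4914 CPM), while the neutrophil sum was highest in replicate 1 (7974 CPM, against 7928 CPM in replicate 2). Fcnb and Ms4a3, named above for their likeness to Cd63, belong to the primary granule list. Without Nrp1 high replicate 3 both counts were 0, as were the calls over all genes, and they were 5 and 3 without Nrp1 high replicate 1 and 6 and 3 without Nrp1 low replicate 3. The part of these cells or transcripts in the tetraspanin values was not tested.

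Cd9 is also a platelet and basophil protein, so markers of those cells stand beside it. Of 12 megakaryocyte and platelet genes tested, 3 (Ppbp, Gp5 and Itga2b) were called lower in Nrp1 high cells. For this list and those below, the share called lower over all genes tested was 0.676%. The platelet list summed to 19.5 to 27.1 CPM in Nrp1 high, against 78.8 to 92.8 CPM in Nrp1 low libraries. Of 8 basophil and mast cell genes, 1 (Hdc) was called lower, with sums of 35.9 to 62.6 CPM in Nrp1 high, against 96.0 to 131.7 CPM in Nrp1 low libraries. Of these 8, 7 were below 0 and 1 above (Ms4a2, log2 1.21 ± 1.21). Groups were separate with Nrp1 high below in 2 of the 8, beside 10.8% of all genes tested. Of 7 NK cell genes, 1 (Nkg7) was called lower, with sums of 50.7 to 78.7 CPM in Nrp1 high, against 160.5 to 218.1 CPM in Nrp1 low libraries. Nkg7 itself made up most of those sums. It held 47.1, 62.1 and 40.0 CPM in Nrp1 high, against 186.7, 139.2 and 193.3 CPM in Nrp1 low libraries. Of the 7 NK cell genes, 5 were below 0 and 2 above. None of these platelet, basophil and NK calls held without Nrp1 high replicate 3 or without Nrp1 low replicate 3. The platelet count was 1 without Nrp1 high replicate 1 or 2 or Nrp1 low replicate 2, Hdc was not called without Nrp1 high replicate 1 or 2, and Nkg7 was not called without Nrp1 high replicate 1. B cell genes, beside which Cd81 and Cd37 are read, had 0 of 10 called, with sums of 322.1 to 355.4 CPM in Nrp1 high, against 338.8 to 423.5 CPM in Nrp1 low libraries. At an unadjusted p under 0.05, 1 of these 10 was higher and none lower, and DESeq2 and limma-voom called none. Over all 15541 genes tested, 1744 had an unadjusted p under 0.05 in either direction. No gene of the T cell, erythroid, macrophage, dendritic cell or either monocyte list was called by edgeR. DESeq2 called 5 macrophage and 2 non-classical monocyte genes lower and 1 classical monocyte gene higher, and limma-voom called 1 macrophage gene lower. At an unadjusted p under 0.05 from edgeR, these 6 lists held 6 genes higher and 12 lower. Dendritic cell genes made up 3 and classical monocyte genes 2 of the higher, and neither list held a lower one. The macrophage list held 1 of the higher and 8 of the lower genes. Among its 12 genes the log2 fold change was negative for 11 and positive for 1, and the middle value was -1.12. Its groups were separate with Nrp1 high lower for 9 genes and higher for 1. Vcam1 of that list was nearest to a call (adjusted p 0.0517 from edgeR). Macrophage genes summed to 471.2 to 497.6 CPM in Nrp1 high, against 683.3 to 766.1 CPM in Nrp1 low libraries. None of the listed genes in the table was at 0 in all 6 libraries, and the part of these cells in the tetraspanin values was not tested.

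**Figure D3:**
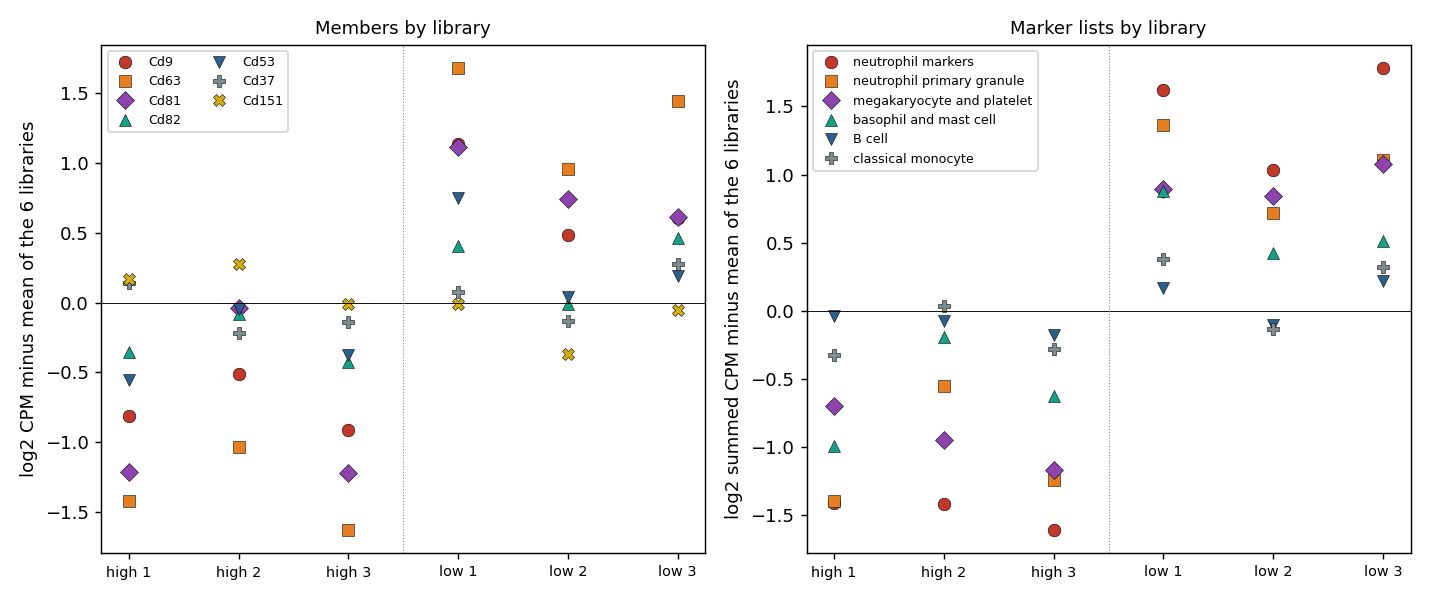
Left, log2 CPM of each tetraspanin minus its mean over the 6 libraries; right, the same for the summed CPM of 6 marker lists; libraries run along the x axis with the 3 Nrp1 high libraries left of the dotted line. Cd63, Cd9 and Cd81 and the neutrophil, primary granule, platelet and basophil lists are below their mean in the Nrp1 high libraries and above it in the Nrp1 low libraries, while Cd37, Cd151, the B cell and the classical monocyte lists have smaller deviations.

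Accessible chromatin was read from the authors' deposited table, which gives a log2 fold, a p-value and a false discovery rate (FDR) for each region and no value per library. The sign is taken from the name the labels give the comparison, high against low, and no column states it. Of the 188 regions assigned to 89 genes called lower in RNA, the authors' deposited table had 20 positive and 3 negative past an FDR of 0.05, and of the 8 regions of Nrp1 it had 2 positive and 1 negative. The folds of the tetraspanin regions are therefore given with their deposited sign only.

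In the authors' deposited table, the 17 tetraspanin regions fell to Cd9 (7), Cd81 (4), Cd53 (2), Cd151 (2), Cd82 (1) and Cd37 (1), and none to Cd63. None was past an FDR of 0.05, beside 4.99% of all regions with a negative and 2.56% with a positive fold. Of the 17, 1 had an unadjusted p under 0.05 in the authors' deposited table, against 23.7% of all regions. Folds in the authors' deposited table ran from -0.41 to 0.33, with 11 negative and 6 positive, a median of -0.03 and a median of -0.09 over all regions.

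At the starts of the 6 genes the deposited folds were small. In the authors' deposited table the start region of Cd9 (chr6:125494394-125494793) had a log2 fold of 0.16 (FDR 0.694), that of Cd81 (chr7:143052694-143053093) 0.24 (FDR 0.386) and that of Cd53 (chr3:106790020-106790419) 0.14 (FDR 0.476). The same deposited table gave the start region of Cd37 (chr7:45238808-45239207) a log2 fold of -0.04 (FDR 0.86) and that of Cd82 (chr2:93462186-93462585) 0.02 (FDR 0.903). The start regions of Cd151 stood at 0.11 (FDR 0.646; chr7:141467271-141467670) and -0.23 (FDR 0.47; chr7:141468476-141468875) in the authors' deposited table. The Cd9 and Cd81 start regions covered 33 and 56 of the 250 upstream bases printed above, and those of Cd53 and Cd37 covered all 250.

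Away from the starts, the region of lowest FDR among the members lay in the Cd53 gene (chr3:106788129-106788528), 1621 bases past the start, with a log2 fold of 0.33 and an FDR of 0.0842 in the authors' deposited table. The region of lowest FDR assigned to Cd9 (chr6:125509844-125510243) lay 15053 bases upstream, with a fold of -0.40 (FDR 0.214) in the authors' deposited table. An intron 1 region of Cd9 (chr6:125473302-125473701) had the most negative fold of the 17, -0.41 (FDR 0.439), in the same deposited table. The other 4 Cd9 regions were intergenic, past the gene's end at 17281 to 40190 bases from the assigned start, with deposited folds between -0.28 and 0. A region inside the Cd9 span but assigned to Gm28809 (chr6:125481763-125482162), so not among the 17, had a deposited fold of 0.40 (FDR 0.106). The remaining Cd81 regions had folds of -0.03, -0.23 and -0.06 in the authors' deposited table, the first pair of them 13953 and 6027 bases upstream. The last lay 762 bases past its assigned start and was annotated there as promoter.

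For Cd63, the deposited table's nearest region (chr10:128895519-128895918) ended 313 bases before the RefSeq gene span and was assigned to Gdf11, with a log2 fold of 0.46 (FDR 0.153). That span begins at 128896231, whereas the transcript start used above lies inside it at 128909345, so this region is not beside that start. The next on the far side began 10202 bases past the span and was assigned to Bloc1s1. No region covered any of the 250 bases shown for Cd63, which says only that none was listed there. The neighbours Tspan4 and Tspan32 had 3 regions each in the authors' deposited table, none past the threshold, with lowest FDRs of 0.282 and 0.411.

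**Figure D4:**
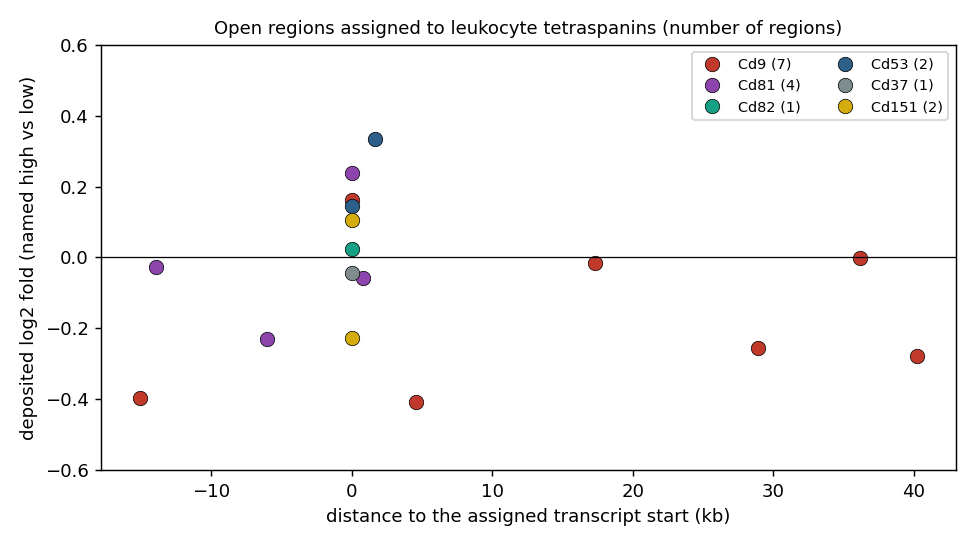
Log2 fold in the authors' deposited table (y axis, sign as deposited) against distance to the assigned transcript start in kb (x axis) for the 17 regions of 6 tetraspanins, coloured by gene. All points lie between -0.41 and 0.33 and none is past an FDR of 0.05.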

How the data were processed

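RNA-seq was measured in 6 and ATAC-seq in 10 libraries of sorted spleen monocytes. Low-input RNA libraries were read in pairs of 150 bases, per the labels' protocols. The submitters' processing notes name HISAT2 and StringTie and the build GRCm38, without versions. The deposited estimated counts per gene are whole numbers, so rounding changed nothing. No source used here states the strand, so the lncRNAs that overlap Cd9, Cd81, Cd82 and Cd151 are uncertain, though each averaged under 3 CPM where it had values. For Cd151 this is not small beside its own level. Gm10575, which shares 410 bases with Cd151, averaged 0.55 CPM in Nrp1 high, against 2.65 CPM in Nrp1 low libraries. Cd151 averaged 9.65 CPM in Nrp1 high, against 7.91 CPM in Nrp1 low libraries.

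For ATAC-seq the authors deposited their own comparison, which lists per region the log2 fold, p-value and FDR (40796 regions, 99.2% of them 400 bases wide). For these data the submitters' processing notes also list Trimmomatic, BWA, Picard, MACS2, DiffBind and ChIPseeker, with no order or version. The labels refer to a DESeq2 table, but edgeR is in the deposited table's name. Depth per library is unknown, and no source used here says whether reads were shifted for the transposase.

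Genes were kept with filterByExpr, scaled by TMM factors, and tested by edgeR 4.0.16 (R 4.3.3), using a robust quasi-likelihood fit with group as the term. P-values were adjusted by Benjamini-Hochberg over 15541 genes and a gene was called under 0.05. DESeq2 1.42.0 and limma-voom (limma 3.58.1), other scalings, thresholds and filters, a block for the replicate number, and leaving out each RNA library were the alternatives. The fit was tested on simulated data. Members held 161 to 19674 estimated counts per library. Members and lists were chosen with earlier results of these data known, and no count over them is independent support.

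The text names the 7 members and Nrp1, every called gene of the 4 gene lists and up to 3 more per list by lowest p, and the 3 most correlated genes per member with at least 10 CPM. Itgb1, Sdcbp, Lamp1 and the marker genes named were added after their values were seen. Levels were not compared between genes, because no transcript lengths were used here. Gene coordinates and promoters are from RefSeq on GRCm38.p6.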

Additional observations from a re-analysis of the deposited data

How the results depend on the processing

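Precision rests on 3 RNA libraries per group, and the depth of the ATAC libraries is unknown. Calls over all genes numbered 106 and became 403 with DESeq2 (77 higher, 326 lower, against 1 and 105), 169 at an adjusted p under 0.1, and 0 to 125 when 1 library was left out, with 0 without Nrp1 high replicate 3, 28 without Nrp1 high replicate 1, 50 without Nrp1 high replicate 2 and 29 without Nrp1 low replicate 3. Of the members, 2 were called, 1 at library totals without scaling factors, and 0 to 2 when 1 library was left out, with 0 without Nrp1 high replicate 3 and 1 without Nrp1 high replicate 1 or Nrp1 low replicate 2 or 3. The 4 gene lists together held 1 call, which became 2 with RLE scaling, 0 at library totals, 2 with a filter of 1 CPM in 3 libraries, 6 with DESeq2, 3 with limma-voom, 3 at an adjusted p under 0.1 and 0 to 1 when 1 library was left out (1 only without Nrp1 low replicate 1).

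Library totals moved the median of all genes by 0.19 on the log2 scale. There Cd9 stood at -1.31 (adjusted p 0.0552, edgeR) and Cd37 turned to 0.054, or -0.14 relative to that shift. Leaving out 1 library gave -1.63 to -1.28 for Cd9, -2.91 to -2.56 for Cd63 and -2.05 to -1.35 for Cd81. Cd81 was past the threshold with DESeq2 at -1.55 and without Nrp1 high replicate 2. Over all 14 alternatives the adjusted p ranged from 9.06e-06 to 0.299 for Cd9, from 2.1e-18 to 0.0864 for Cd63 and from 0.00215 to 0.62 for Cd81. Cd82, Cd53 and Cd151 kept their direction and did not pass the threshold in any of the 14. At a deposited FDR under 0.1, 1 tetraspanin region passed.

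Replicate numbers are shared between the groups, and deviations of same-numbered libraries from their group means correlated at -0.342, -0.394 and 0.0321. With 3 libraries per group these values cannot decide whether same-numbered libraries were paired, and the labels name no pairing. With the replicate number as a block, 0 genes, 0 members and 0 list genes were called. Under that block Cd9 was at -1.49 (adjusted p 0.299) and Cd63 at -2.73 (adjusted p 0.0864). The cause of these changes was not tested. Levels per kilobase were not run.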
